A study of Homo sapiens with 4 samples.

Results

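The genes described here encode 10 growth factor receptor tyrosine kinases: EGFR, ERBB2 and ERBB3 of the ERBB family, the HGF receptor MET, the GAS6 receptor AXL, the insulin-like growth factor receptor IGF1R, and the fibroblast growth factor receptors FGFR1 to FGFR4. They were chosen by name and not by their values, but with earlier results of these data known. All 10 were found by symbol in the deposited table of FPKM and by Ensembl identifier in the table of reads, among 58735 genes in each table. RNA-seq had been performed on MHCC-97H cells, an established human line of metastatic hepatocellular carcinoma (HCC), with 1 library per condition and 4 in all. The recipient cells were wild type in every library and received PBS or 2 μg of migrasomes (Migs), vesicle-bearing organelles that migrating cells leave behind on their retraction fibers, and were collected after 24 h. The Migs came from MHCC-97H cells kept in normoxia (normo-Migs), from the same line kept in hypoxia (hypo-Migs), or from CD147-knockout MHCC-97H cells kept in hypoxia (CD147KO-Migs). The knockout was thus in the donor cells, and no library was made from knockout cells.

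Receptor tyrosine kinases span the plasma membrane, with a part outside the cell that binds a ligand and a kinase inside it. Ligand binding brings receptors together, the kinases phosphorylate each other, and adaptor proteins that dock on the phosphorylated tyrosines pass the signal to the RAS/ERK and PI3K/AKT pathways. In liver and in HCC these receptors are known for hepatocyte growth, survival, invasion and resistance to kinase inhibitors such as sorafenib, the drug that the study is about.

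Reads on genes numbered 33882496 to 40285223 per library, and a gene was tested if any library had 10 reads or more on it, which left 19895 genes. All 10 receptors were among them, but FGFR2 had at most 16 reads and entered through the normo-Migs library alone. FPKM values are reads divided by gene length and by library size, so that levels of different genes can be compared within a library. The reads of 2 libraries were compared after TMM scaling with a two-sided exact binomial test (edgeR) and Benjamini-Hochberg adjustment over all genes tested. A gene passed the criteria, which were those of the study, where the adjusted p was 0.05 or lower and the log2 fold change lay at or beyond 1 in either direction. With 1 library per condition there was no replicate check, so every such test compares libraries and not conditions, and all intervals cover counting error only.

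The library labelled PBS stood apart from the rest. It had at most 3 reads for 251 genes that had at least 100 in each Mig library, whereas 0 genes met the same rule for any Mig library. Mitochondrial genes took 2.69% of its reads and 5.00% to 5.16% of those in the Mig libraries. Of 10 hepatocyte markers, 7 were at 0 reads with PBS and 5 or 6 with Migs, and ALB, AFP, APOB and TTR were at 0 in every library. The summed CPM (reads per 1000000 reads on genes) of this list was 4.75 with PBS and 21.1 to 28.6 with Migs. For 7 markers of simple epithelium it was 4619 and 5561 to 6667, and KRT8 and KRT18 accounted for most of these reads in every library. KRT19 had 11287 reads with PBS and 32 to 75 with Migs, and CDH1 was at 0 reads with PBS. Mesenchymal markers summed to a CPM of 312 with PBS, where SPARC was at 0, and to 827 to 865 with Migs. The part of these differences in the receptor values against PBS was not tested, and what sets this library apart cannot be told apart from the treatment. Endothelial markers summed to a CPM of at most 5.86 and leukocyte markers to at most 4.28 in any library. The tests with the library labelled PBS share that library, so their values for the receptors are given side by side and are not independent of each other.

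With PBS, MET and EGFR had the highest levels of the 10 receptors per length, at 54.4 and 49.1 FPKM. They were followed by AXL (26.3), IGF1R (7.23), ERBB2 (5.52), FGFR4 (5.36), FGFR1 (1.89), FGFR3 (1.77) and ERBB3 (0.908), and FGFR2 was listed at 0. The 95% Wilson intervals overlapped for ERBB2 and FGFR4 and for FGFR1 and FGFR3, and for no other neighbors in this order. In all 3 Mig libraries IGF1R was first, followed by MET, EGFR, AXL and ERBB2, and no intervals of these neighbors overlapped. FGFR1 and FGFR4 came next with overlapping intervals in each Mig library, then FGFR3 and ERBB3, whose intervals overlapped after normo-Migs alone, and FGFR2 was last. The order thus differed between the library labelled PBS and the Mig libraries at its top, where IGF1R moved from rank 4 to rank 1, while the Mig libraries shared the same first 5 receptors.

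**Figure D1:**
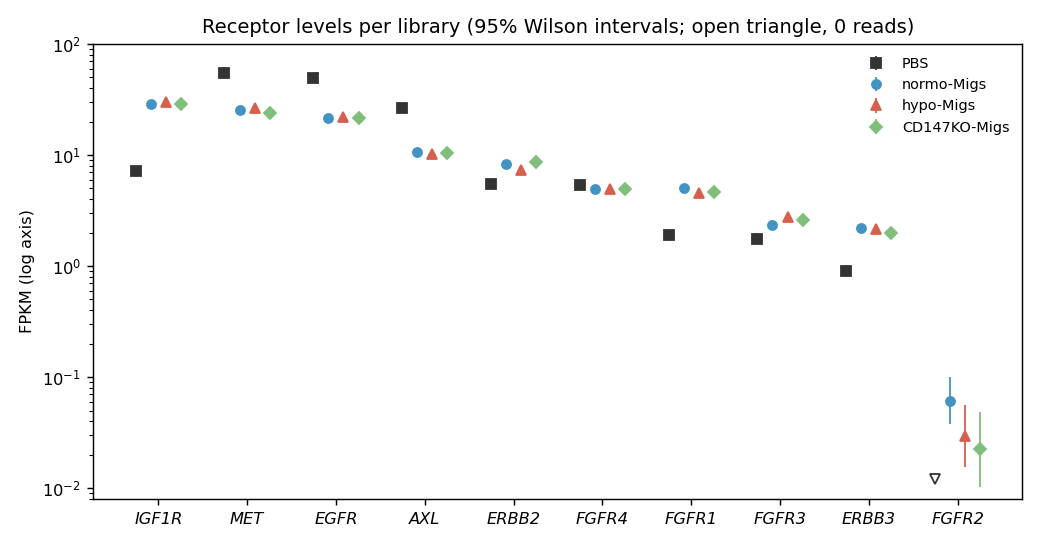
Level of each receptor per library in FPKM on a log axis, with 95% Wilson intervals of the reads (squares, PBS; circles, normo-Migs; filled triangles, hypo-Migs; diamonds, CD147KO-Migs). The open triangle marks FGFR2 with PBS, which had 0 reads. The 3 Mig libraries lie close together for every receptor but FGFR2, with PBS above them for EGFR, MET, AXL and, by little, FGFR4.

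EGFR, MET and AXL were lower in every Mig library than in the library labelled PBS. EGFR (ENSG00000146648, chromosome 7, 55019021 to 55211628 on GRCh38, plus strand) binds EGF, TGFA and related ligands and is a main driver of hepatocyte proliferation. It had 21254 reads with PBS, 9352 after normo-Migs, 11108 after hypo-Migs and 9619 after CD147KO-Migs, which are 49.1, 21.7, 21.9 and 21.7 FPKM. The levels in the 3 Mig libraries were nearly the same and less than the PBS value by a factor of over 2. The log2 fold change against PBS was -1.15 after hypo-Migs (exact 95% interval -1.19 to -1.12), -1.17 after normo-Migs and -1.16 after CD147KO-Migs, and each adjusted p of the exact binomial test was too small for the software to tell from 0. In bulk RNA, fewer cells that carry a transcript and less of it per cell cannot be told apart. An antisense gene, EGFR-AS1, overlaps EGFR, and with 11 to 25 reads per library it was small beside it.

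MET (ENSG00000105976, chromosome 7, 116672390 to 116798386, plus strand) is the receptor of hepatocyte growth factor and is known for liver regeneration and invasive growth. Its reads were 13236 with PBS, 6196 after normo-Migs, 7498 after hypo-Migs and 5950 after CD147KO-Migs, or 54.4, 25.6, 26.3 and 23.9 FPKM. PBS was again highest, and among the Mig libraries CD147KO-Migs was lowest. The log2 fold change against PBS was -1.04 after hypo-Migs (-1.08 to -0.997), -1.08 after normo-Migs and -1.17 after CD147KO-Migs, so that the interval after hypo-Migs ended at the fold criterion. Transcripts of HGF, its ligand, were at 0 reads in each library but hypo-Migs, which had 2. HGF, like GAS6, IGF1, IGF2, FGF19 and KLB, was named after its values were seen.

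AXL (ENSG00000167601, chromosome 19, 41219203 to 41261766, plus strand) binds GAS6 and is known for mesenchymal traits and drug resistance in tumors. It had 4696 reads with PBS, 1867 after normo-Migs, 2130 after hypo-Migs and 1918 after CD147KO-Migs, corresponding to 26.3, 10.5, 10.2 and 10.5 FPKM. Of the 10 receptors it had the most negative log2 fold change after hypo-Migs, at -1.36 (-1.43 to -1.28, adjusted p = 7.42e-308), beside -1.31 after normo-Migs and -1.31 after CD147KO-Migs (exact binomial test). GAS6 had 805 reads with PBS and 1251 to 1325 with Migs and did not pass. The promoter of AXL is shown as that of the receptor with the lowest log2 fold change. It is the RefSeq sequence of GRCh38.p14 from 250 bases before to 50 after the start of the gene, chr19:41218973-41219272, plus strand. Capitals mark an E-box, the CANNTG letters bound by basic helix-loop-helix factors such as TWIST1, the factor on which the study centers.
AXL: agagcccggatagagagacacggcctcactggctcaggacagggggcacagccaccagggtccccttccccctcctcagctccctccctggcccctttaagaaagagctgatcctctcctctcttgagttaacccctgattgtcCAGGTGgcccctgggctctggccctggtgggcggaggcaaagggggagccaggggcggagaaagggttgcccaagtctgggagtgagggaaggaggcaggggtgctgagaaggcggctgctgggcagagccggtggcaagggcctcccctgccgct

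IGF1R rose in every Mig library against PBS and had the largest rise among the receptors with over 16 reads. IGF1R (ENSG00000140443, chromosome 15, 98648539 to 98964530, plus strand) binds IGF1 and IGF2 and signals to PI3K/AKT through IRS proteins. It had 3486 reads with PBS, 13689 after normo-Migs, 16859 after hypo-Migs and 14120 after CD147KO-Migs, or 7.23, 28.6, 29.9 and 28.6 FPKM. The PBS value was far below the Mig values, of which hypo-Migs was the highest by little. The log2 fold change against PBS was 2.06 after hypo-Migs (2.00 to 2.11), 1.99 after normo-Migs and 2.00 after CD147KO-Migs, each with an adjusted p that the software could not tell from 0. The antisense genes that overlap IGF1R had at most 26 reads. Its ligands were hardly counted in any library: IGF1 had 1, 13, 0 and 0 reads and IGF2 0, 8, 8 and 5 in the order PBS, normo-Migs, hypo-Migs and CD147KO-Migs. Its promoter, added after its values were seen, is chr15:98648289-98648588 of the same RefSeq build, plus strand, and holds no E-box, so that no capitals appear.
IGF1R: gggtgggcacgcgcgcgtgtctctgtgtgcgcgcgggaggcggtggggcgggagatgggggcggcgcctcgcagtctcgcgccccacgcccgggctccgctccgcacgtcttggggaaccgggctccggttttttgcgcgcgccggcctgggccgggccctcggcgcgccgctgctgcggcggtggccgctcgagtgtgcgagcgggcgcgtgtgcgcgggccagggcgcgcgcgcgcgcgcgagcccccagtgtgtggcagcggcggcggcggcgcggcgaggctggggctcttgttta

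In the ERBB family, ERBB3 rose against PBS and ERBB2 did not reach the fold criterion. ERBB2 (ENSG00000141736, chromosome 17, 39687914 to 39730426, plus strand) has no known ligand and acts as the partner of the other ERBB receptors. It had 1969 reads with PBS, 2931 after normo-Migs, 3093 after hypo-Migs and 3137 after CD147KO-Migs, or 5.52, 8.26, 7.40 and 8.60 FPKM. PBS was lowest, and hypo-Migs was lowest among the Mig libraries. The log2 fold change against PBS was 0.43 after hypo-Migs (0.35 to 0.52), 0.59 after normo-Migs and 0.65 after CD147KO-Migs, differences beyond counting error and below the fold criterion. The annotation places 2 protein-coding genes on the opposite strand across its ends, MIEN1 with 359 to 688 reads and PGAP3 with 212 to 287, and the strand setting of the counting is not given in the sources used here. ERBB3 (ENSG00000065361, chromosome 12, 56076799 to 56103505, plus strand) binds neuregulins, has a weak kinase and recruits PI3K when paired with ERBB2. It had 284 reads with PBS, 689 after normo-Migs, 788 after hypo-Migs and 641 after CD147KO-Migs, or 0.908, 2.22, 2.15 and 2.01 FPKM. The Mig libraries were close to each other and all above PBS. Its log2 fold change against PBS was 1.25 after hypo-Migs (1.06 to 1.46, adjusted p = 2.18e-39), 1.29 after normo-Migs and 1.15 after CD147KO-Migs (0.95 to 1.36, exact binomial test), and this last interval reached below the fold criterion.

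Among the 4 fibroblast growth factor receptors, FGFR1 and FGFR2 passed against PBS, FGFR3 was higher by less than the fold criterion, and FGFR4 hardly differed. FGFR1 (ENSG00000077782) is known mainly from mesenchymal cells. It had 906 reads with PBS, 2409 after normo-Migs, 2558 after hypo-Migs and 2263 after CD147KO-Migs, or 1.89, 5.06, 4.56 and 4.62 FPKM. PBS was lowest and normo-Migs highest. The log2 fold change against PBS was 1.28 after hypo-Migs (1.17 to 1.39, adjusted p = 2.57e-129), 1.43 after normo-Migs and 1.30 after CD147KO-Migs (exact binomial test). LETM2, a protein-coding gene on the opposite strand that overlaps it, had 31 reads with PBS and 57 to 92 with Migs. FGFR4 (ENSG00000160867, chromosome 5, 177086886 to 177098144, plus strand) is the FGF19 receptor of hepatocytes, which limits bile acid synthesis. Its reads were 895 with PBS, 812 after normo-Migs, 975 after hypo-Migs and 851 after CD147KO-Migs, or 5.36, 4.89, 4.99 and 4.98 FPKM. It was the receptor that differed least from PBS, with a log2 fold change of -0.09 after hypo-Migs (-0.23 to 0.04, adjusted p = 0.206), -0.12 after normo-Migs (adjusted p = 0.115) and -0.09 after CD147KO-Migs (adjusted p = 0.225, exact binomial test). Transcripts of FGF19 were at 0 reads in each library but CD147KO-Migs, which had 4, and its coreceptor KLB had 13 to 34 reads per library.

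FGFR3 (ENSG00000068078, chromosome 4, 1793293 to 1808872, plus strand), known as a brake on bone growth and an oncogene of the bladder, had 296 reads with PBS, 394 after normo-Migs, 542 after hypo-Migs and 449 after CD147KO-Migs. Its levels were 1.77, 2.36, 2.76 and 2.62 FPKM, lowest with PBS and highest after hypo-Migs. The log2 fold change against PBS was 0.65 after hypo-Migs (0.45 to 0.86), 0.43 after normo-Migs and 0.58 after CD147KO-Migs. FGFR2 (ENSG00000066468, chromosome 10, 121478334 to 121598458, minus strand), an epithelial receptor of FGF7 and FGF10, was close to the limit of detection, with 0 reads in PBS, 16 after normo-Migs, 9 after hypo-Migs and 6 after CD147KO-Migs. Its highest level was 0.0614 FPKM. A count of 0 allows up to 3 reads in the PBS library. Against 3 reads, FGFR2 was 5.40-fold higher after normo-Migs, 2.58-fold higher after hypo-Migs and 1.97-fold higher after CD147KO-Migs. These folds take the Mig count as exact and are not lower limits. The exact intervals of the log2 fold change began lower, at 1.97, 0.76 and 0.21 in the same order. The fitted log2 fold changes of 3.18, 2.37 and 1.99 in the same order depend on the prior count and had adjusted p of 2.89e-05, 0.00749 and 0.0451 (exact binomial test), the last of which was 0.0744 when a coefficient of variation of 0.1 between libraries was assumed. Since these were the highest fitted values after hypo-Migs and normo-Migs, its promoter is shown as the counterpart of that of AXL, from chr10:121598395-121598694, minus strand, with no E-box and hence no capitals.
FGFR2: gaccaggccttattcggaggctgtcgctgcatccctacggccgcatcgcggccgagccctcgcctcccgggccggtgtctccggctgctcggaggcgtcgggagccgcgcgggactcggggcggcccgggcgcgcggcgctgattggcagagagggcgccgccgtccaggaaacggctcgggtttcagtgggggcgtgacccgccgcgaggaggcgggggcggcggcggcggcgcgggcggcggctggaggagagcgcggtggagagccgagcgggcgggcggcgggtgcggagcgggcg

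The promoters of 8 of the 10 receptors were in the RefSeq table, ERBB3 and FGFR1 being the others. The letters of 3 motifs were searched on both strands: CANNTG, the E-box; ACGTG, the core of the response element bound by hypoxia-inducible factors; and GGGCGG, the GC box bound by SP1. CACGTG would count for both of the first sets. The E-box was found in 4 of the 8 promoters (MET, AXL, FGFR3 and FGFR4, with 1 match each) and in 68.9% of all 27305 promoters of this length. ACGTG was found in 2 of 8, with 2 matches in MET and 1 in IGF1R, and in 21.6% of all. The GC box was found in 7 of 8, all but ERBB2, and in 44.6% of all. GC content was 66% for the AXL window shown, 79.7% for IGF1R and 79.3% for FGFR2. A match in the letters is a description of the sequence only.

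In the library labelled PBS, MET, EGFR and AXL together made up 85.1% of the summed FPKM of the 10 receptors, and 52.2% to 53.0% in the Mig libraries. IGF1R made up 4.74% with PBS and 26.1% after normo-Migs, 27.1% after hypo-Migs and 26.6% after CD147KO-Migs. ERBB2 and ERBB3 together took 4.21% and 8.67% to 9.85%, and FGFR1 to FGFR4 5.91% and 11.2% to 11.4%. The sum itself was 152.5 FPKM with PBS and 107.7 to 110.2 with Migs. Shares and ratios within a library were chosen after the values were seen, and they do not depend on the scaling between libraries.

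**Figure D2:**
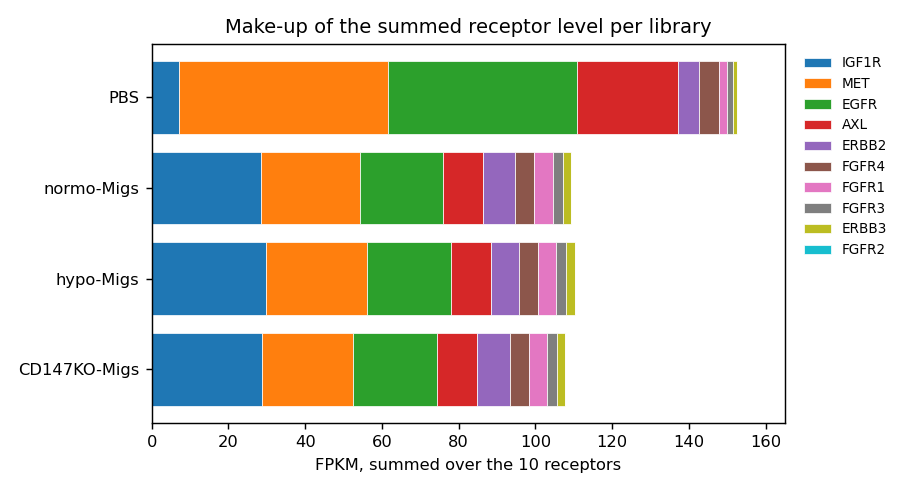
Summed FPKM of the 10 receptors per library on a linear axis that starts at 0, with 1 color per receptor. MET, EGFR and AXL fill most of the PBS bar, and IGF1R takes more of each Mig bar than MET or EGFR does.

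Per length, IGF1R stood at 0.147 times EGFR with PBS (exact 95% interval 0.142 to 0.153) and at 1.31 times after normo-Migs (1.28 to 1.35), 1.36 after hypo-Migs (1.33 to 1.40) and 1.32 after CD147KO-Migs (1.28 to 1.35). IGF1R thus changed from a minor transcript beside EGFR to the more abundant of the pair. MET stayed near EGFR, with ratios of 1.11, 1.18, 1.20 and 1.10 in the order PBS, normo-Migs, hypo-Migs and CD147KO-Migs, and AXL had ratios to EGFR of 0.537, 0.485, 0.466 and 0.484. The interval of AXL to EGFR with PBS (0.520 to 0.554) lay above those of the Mig libraries, which ended at 0.510 or lower. For MET to EGFR, the interval with PBS (1.08 to 1.13) overlapped that after CD147KO-Migs (1.07 to 1.14) alone. Proportions among the 3 receptors that fell thus changed less than that of IGF1R to EGFR, but in part beyond counting error. FGFR1 had 0.353 times the level of FGFR4 with PBS (0.322 to 0.388) and 1.03, 0.915 and 0.928 times in the Mig libraries. ERBB3 had 0.165 times the level of ERBB2 with PBS and 0.268, 0.291 and 0.233 times with Migs.

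Over the 10 receptors, 7 passed the criteria between hypo-Migs and PBS, of which IGF1R, FGFR1, ERBB3 and FGFR2 were higher and EGFR, MET and AXL lower. Of all genes tested, 28.3% passed in this pair, 17.5% higher and 10.9% lower. The same 7 receptors passed in the same directions after normo-Migs, where 27.2% of all genes passed (16.5% higher and 10.7% lower), and after CD147KO-Migs, where 27.4% passed (16.6% higher and 10.9% lower). An adjusted p of at most 0.05 alone was reached by 9 of 10 receptors in each pair, beside 71.3%, 69.7% and 69.9% of all genes after hypo-Migs, normo-Migs and CD147KO-Migs. Without FGFR2, the only receptor below 10 reads in any library, 6 of 9 passed, beside 18.4%, 17.9% and 18.4% of the genes that had 10 reads or more in all 4 libraries. The median log2 fold change of the receptors was 0.54 after hypo-Migs, 0.51 after normo-Migs and 0.61 after CD147KO-Migs, and over all genes tested 0.04, 0.03 and 0.03. The median absolute log2 fold change was 1.20, 1.23 and 1.17 for the receptors and 0.56, 0.56 and 0.57 for all genes.

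**Figure D3:**
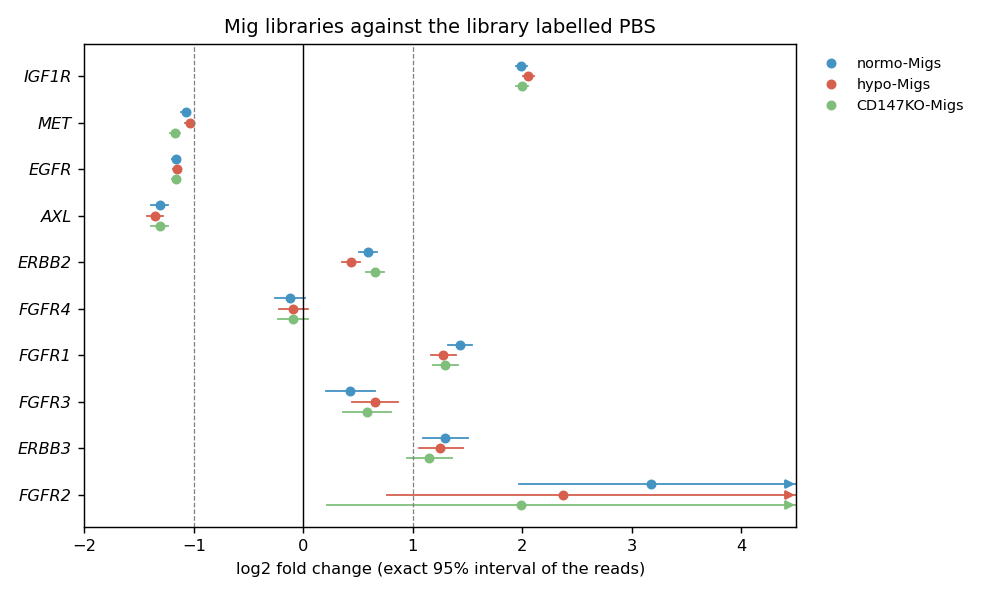
Log2 fold change of each Mig library against the library labelled PBS, with exact 95% intervals of the reads; dashed lines mark an absolute log2 fold change of 1, and arrowheads mark intervals that run past the axis. For each receptor but FGFR2 the points of the 3 Mig libraries lie close together, with IGF1R near 2 and AXL, EGFR and MET beyond -1.

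The calls against PBS rest on counting error. When a coefficient of variation of 0.1 between libraries was assumed in edgeR's exact test, 7 receptors passed after hypo-Migs, 7 after normo-Migs and 6 after CD147KO-Migs, FGFR2 being lost in the last, beside 26.5%, 25.2% and 25.6% of all genes. With 0.4 assumed, 0 receptors passed after hypo-Migs or CD147KO-Migs and 1, FGFR2, after normo-Migs. Of all genes, 8.21% passed after hypo-Migs, 7.92% after CD147KO-Migs and 7.72% after normo-Migs. FGFR2 had met the read filter through the normo-Migs library alone, so its call there is not independent of that filter. The adjusted p of IGF1R was 0.150 after hypo-Migs (edgeR's exact test with 0.4 assumed). With log2(FPKM + 1) and the fold change alone, EGFR, MET, AXL and IGF1R passed after hypo-Migs and CD147KO-Migs, and these and FGFR1 after normo-Migs, beside 8.41%, 8.33% and 8.14% of all genes. With DESeq2, which took the 4 libraries as replicates of each other, 0 receptors and 0 of all 19895 genes tested passed in any pair. This 0 is therefore not particular to the receptors. In each pair with PBS, 1 receptor had an unadjusted p below 0.05 by DESeq2. Of all genes, 1269 had one after hypo-Migs, 1246 after normo-Migs and 1296 after CD147KO-Migs.

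Between the Mig libraries, 0 of the 10 receptors passed the criteria in any pair by edgeR's exact binomial test. By the same test, 4.91% of all genes passed between hypo-Migs and normo-Migs, 5.05% between hypo-Migs and CD147KO-Migs and 4.90% between normo-Migs and CD147KO-Migs. With DESeq2, 0 receptors passed, but so did 0 of all 19895 genes tested, so it cannot tell the receptors from other genes. In the same order of pairs, 4, 3 and 3 receptors had an unadjusted p below 0.05 (exact binomial test), beside 7144, 7172 and 7055 of 19895 genes. An adjusted p of at most 0.05 was found for 3, 3 and 2 receptors, beside 24.7%, 25.2% and 24.8% of all genes. The ratio of the highest to the lowest TMM-scaled CPM among the Mig libraries was 1.01 for EGFR, 1.02 for FGFR4, 1.03 for AXL and 1.05 for IGF1R. It was between 1.10 and 1.17 for MET, ERBB3, FGFR1, ERBB2 and FGFR3, and 2.74 for FGFR2, which had 6 to 16 reads. On the fold change alone, FGFR2 passed between normo-Migs and CD147KO-Migs (log2 fold change 1.20, adjusted p = 0.104, exact binomial test), beside 9.46% of all genes.

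The differences beyond counting error between Mig libraries were small and concerned ERBB2, IGF1R, FGFR1 and MET. For ERBB2 the log2 fold change of hypo-Migs was -0.16 against normo-Migs (exact 95% interval -0.23 to -0.09, adjusted p = 0.000305) and -0.22 against CD147KO-Migs (-0.29 to -0.14, adjusted p = 1.61e-07, exact binomial test). For IGF1R it was 0.06 against normo-Migs (0.03 to 0.10, adjusted p = 0.00128) and 0.06 against CD147KO-Migs (0.03 to 0.09, adjusted p = 0.00312, same exact test). Both pairs share the hypo-Migs library, in which ERBB2 was lowest and IGF1R highest of the 3. For FGFR1, normo-Migs was highest, with -0.15 for hypo-Migs against normo-Migs (-0.23 to -0.07, adjusted p = 0.00256) and 0.13 for normo-Migs against CD147KO-Migs (0.05 to 0.21, adjusted p = 0.0127, same exact test). For MET, CD147KO-Migs was lowest, with 0.14 after hypo-Migs (0.09 to 0.19, adjusted p = 1.81e-06) and 0.10 for normo-Migs against it (0.05 to 0.15, adjusted p = 0.00181, same exact test). A coefficient of variation of 0.0746 was also used, which treats the Mig libraries as replicates of 1 condition. The lowest adjusted p of these 8 differences was then 0.760 (edgeR's exact test). This coefficient came from the same 3 libraries, so their differences counted as spread and the test cannot decide whether they differ. The difference between hypo-Migs and normo-Migs was 0.01 for EGFR (-0.03 to 0.05), 0.04 for MET (-0.01 to 0.09) and -0.05 for AXL (-0.14 to 0.04), intervals that hold no change of more than 0.14 in either direction. FGFR3 was higher after hypo-Migs than after normo-Migs by 0.22 (0.03 to 0.41, adjusted p = 0.0711, same exact test).

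**Figure D4:**
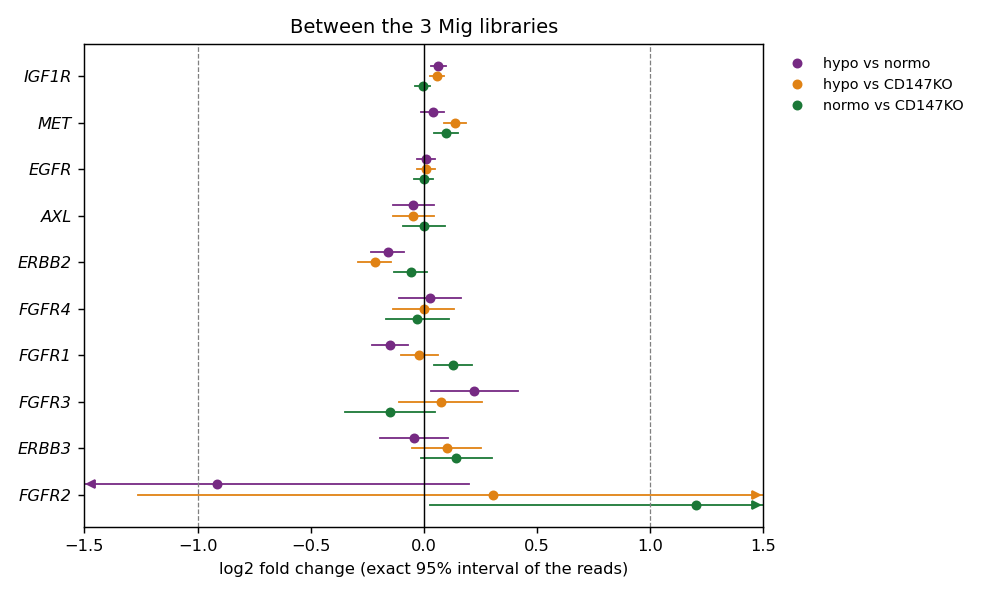
Log2 fold change of each receptor between pairs of Mig libraries, with exact 95% intervals of the reads; dashed lines mark an absolute log2 fold change of 1, and arrowheads mark intervals that run past the axis. FGFR2 alone has intervals wide enough to cross the dashed lines, and the points of the other receptors lie between -0.22 and 0.22.

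Protein-coding genes within 1000000 bases of each receptor were compared with it between hypo-Migs and PBS, as a description with no test. Around EGFR, 12 genes were tested, with a median log2 fold change of 0.25 (range -0.28 to 2.50), and 1 of them had the sign of EGFR. Around MET, 8 genes had a median of 0.22 (-0.98 to 6.40), and 3 had the sign of MET. EGFR and MET, both on chromosome 7, were lower after hypo-Migs while most of their neighbors were not. Around IGF1R, 6 genes had a median of -0.20 (-3.11 to 1.25), and 3 had its sign. Around AXL, 30 of 43 genes had its sign (median -0.47, range -4.47 to 3.68), around FGFR1 16 of 19 (median 0.63, range -0.41 to 1.69), around ERBB2 28 of 40 (median 0.24) and around FGFR2 6 of 7 (median 0.46). For ERBB3 24 of 50 genes had its sign (median -0.05), for FGFR3 15 of 28 (median 0.07) and for FGFR4 14 of 33 (median 0.16).

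**Figure D5:**
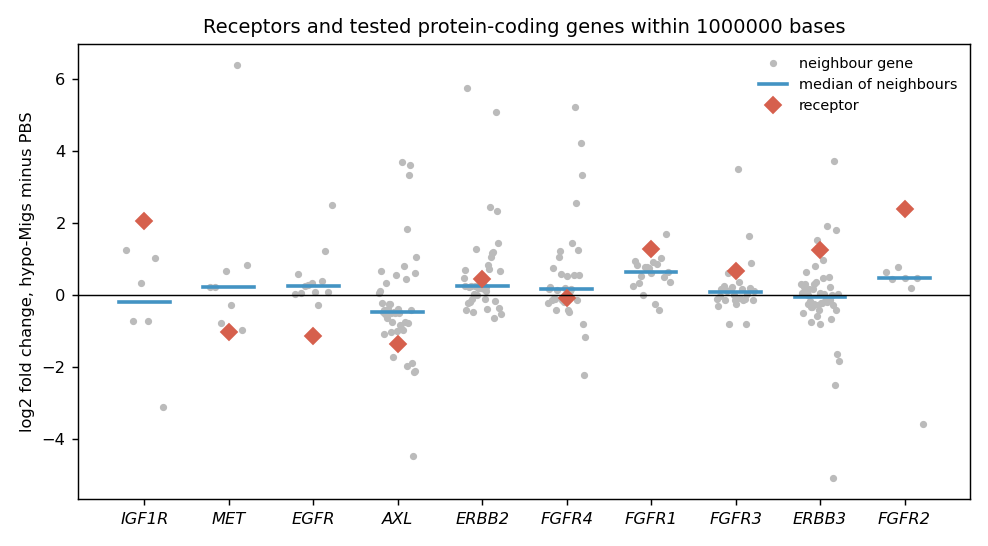
Log2 fold change of hypo-Migs against PBS for each receptor (diamond) and for the tested protein-coding genes within 1000000 bases of it (grey points, spread sideways to be visible), with their median as a bar. EGFR and MET lie below all of their neighbors, and IGF1R lies above all 6 of its own.

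The other genes of the pathway were counted between hypo-Migs and PBS, where 28.3% of all genes tested passed and the median log2 fold change was 0.04. Of 35 ligands of these receptors, 18 were tested, and 10 passed, 6 higher and 4 lower (median 0.38). FGF7, a ligand of FGFR2, had 317 reads after hypo-Migs and 0 with PBS (90.9-fold higher against 3 reads). The neuregulin NRG2 had 130 and 0 (37.3-fold higher against 3 reads). FGF18, a ligand mainly of FGFR3, had 81 and 0 reads (23.2-fold higher against 3 reads). By contrast, NRG1, a ligand of ERBB3, fell by 1.41 on the log2 scale from 445 reads to 194. Of 31 coreceptors and proteins that control ligands, 26 were tested and 11 passed, 8 higher and 3 lower (median 0.25). The heparan sulfate proteoglycan SDC2 had 2685 reads after hypo-Migs and 0 with PBS (770-fold higher against 3 reads). Of the IGF-binding proteins, IGFBP2 had 126 and 0 (36.1-fold higher against 3 reads) and IGFBP4 16568 and 265 (log2 fold change 5.74). IGFBP3, the most abundant IGF-binding protein of this list with PBS and named after its values were seen, was lower, with 12928 reads with PBS and 2401 after hypo-Migs (log2 fold change -2.65, 81.8 and 13.0 FPKM), and it also passed as lower after normo-Migs and CD147KO-Migs. ST14, a membrane protease that can activate pro-HGF, had 63 and 780 reads (log2 fold change -3.80).

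Of 36 other receptor tyrosine kinases tested among 48, 20 passed, 16 higher and 4 lower, with a median of 0.35. The neurotrophin receptors NTRK2 and NTRK3 had 203 and 171 reads after hypo-Migs and 0 with PBS (58.2-fold and 49.0-fold higher against 3 reads). The GDNF-family receptor RET had 163 reads and the ephrin receptor EPHA5 103, each against 0 (46.7-fold and 29.5-fold higher against 3 reads). A gene at 0 reads with PBS enters the test only through the libraries in which it is counted, and among genes with 10 reads or more in all 4 libraries 11 of 23 other receptors, 6 of 12 ligands and 8 of 23 coreceptors passed, beside 18.4% of all such genes.

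Downstream of the receptors, 8 of 40 tested adaptors and members of the signal chain passed, 7 higher and 1 lower (median 0.42). This was a smaller share than the 28.3% of all genes tested. With 10 reads or more in all 4 libraries, 7 of 38 passed, beside 18.4% of all such genes. PIK3CD, the catalytic p110-delta subunit of PI3K, had 1940 reads after hypo-Migs and 70 with PBS (log2 fold change 4.54). The tyrosine kinase SRC had 1669 and 122 reads (3.54), and IRS1, the adaptor of IGF1R, 1050 and 186 (2.27). All 3 were also higher after normo-Migs and CD147KO-Migs. Of 30 negative regulators tested, 6 passed, 5 higher and 1 lower (median -0.09), also a smaller share than that of all genes tested. All 30 had 10 reads or more in all 4 libraries, and 18.4% of all such genes passed. SOCS3 and SOCS2, suppressors of cytokine signaling, had 2373 and 340 reads after hypo-Migs and 246 and 107 with PBS (log2 fold changes 3.04 and 1.43). SPRY4, an inhibitor of RAS/ERK signaling, had 375 and 40 reads (2.95), whereas SPRED3 of the same family of inhibitors had 74 and 253 (-1.96).

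Among 15 genes that ERK signaling is known to induce, 6 (40.0%) passed, 3 higher and 3 lower (median 0.17), beside 28.3% of all genes tested. With 10 reads or more in all 4 libraries, 5 of 14 passed, beside 18.4% of all such genes. SPRY4, which is on this list too, and DUSP4 (1664 and 569 reads, log2 fold change 1.33) were higher after hypo-Migs. The transcription factors FOSL1 (462 and 1500 reads, -1.91) and ETV5 (846 and 1896 reads, -1.38) were lower, so that this list moved in no single direction. Between the Mig libraries, the signal chain, the negative regulators and the ERK-induced genes had 0 genes that passed by the exact binomial test in any pair. The ligands had 1 between hypo-Migs and normo-Migs, 0 between hypo-Migs and CD147KO-Migs and 2 between normo-Migs and CD147KO-Migs, the coreceptors 1, 2 and 1, and the other receptors 1 in each pair, out of 18 ligands, 26 coreceptors and 36 other receptors tested, beside 4.91%, 5.05% and 4.90% of all genes. All of these had means below 50 reads: IGF1 and EGF among the ligands, IGFBP5, FGFBP1 and KLB among the coreceptors, and INSRR, ROS1 and EPHA8 among the other receptors, named after their values were seen.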

How the data were processed

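RNA-seq reads had been counted per gene in 4 libraries of MHCC-97H cells. The authors deposited raw read counts, with no normalization, and FPKM, scaled to the length of each gene and the size of each library. The submitters' processing notes name CASAVA 1.8, fastp, HISAT2 2.0.5, featureCounts 1.5.0-p3 and hg38. The labels name a SMARTer mRNA kit, whereas the supplementary methods describe poly-T beads and random hexamers. No column of either table was left unused, and neither held comparisons of the authors.

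A gene was tested if any library had 10 reads or more on it. Libraries were scaled by TMM (factors 0.986 to 1.02) with edgeR 4.0.16 in R 4.3.3, and a prior count of 2 was added for log2 fold changes. Each pair of libraries was compared by the exact binomial test of edgeR or, above 10000 summed reads, where edgeR replaces it, by an exact binomial test with doubled tails. All 6 pairs were compared, and the 14 alternatives included DESeq2 1.42.0. Tables and figures used Python 3.11.15, pandas 2.3.3, scipy 1.17.1 and matplotlib 3.10.9. In data simulated for hypo-Migs against PBS over 19895 genes, 97 of 100 genes changed 2.5-fold and 100 of 100 changed 4-fold were recovered, with 3 false calls. At a coefficient of variation of 0.1 they were 91 and 100, with 96 false calls. The changed genes were drawn from well-counted genes alone, so these rates do not cover genes with few reads such as FGFR2. All other genes had the same mean in every simulated library, unlike the real pair, in which 28.3% of genes passed.

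The receptors and gene lists were chosen with earlier results of these data known. Named beside the receptors are up to 4 genes per list that passed between hypo-Migs and PBS with a mean of at least 50 reads, by absolute log2 fold change, and the genes that overlap a receptor; 1 gene of this rule is not reported here. A count of 0 allows up to 3 reads, a CPM of 0.0745 to 0.0885. Folds against 3 reads set a count of 0 to that value and take the other count as exact, so they are not lower limits. Coordinates are those of GENCODE on GRCh38, which the tables use, and 15 symbols that differed between the tables were matched by identifier. Protein sequences were not used here.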

Additional observations from a re-analysis of the deposited data

How the results depend on the processing

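Each value was recomputed under 14 alternatives. With log2(FPKM + 1) and the fold change alone, 4 of 10 receptors passed against PBS after hypo-Migs and 4 after CD147KO-Migs, namely EGFR, MET, AXL and IGF1R, and 5 after normo-Migs, FGFR1 being the addition. With an assumed coefficient of variation of 0.4, 0 passed after hypo-Migs, 1 after normo-Migs and 0 after CD147KO-Migs. The receptor that passed after normo-Migs was FGFR2, which met the read filter through that library alone. With DESeq2, 0 passed after hypo-Migs, 0 after normo-Migs and 0 after CD147KO-Migs, as did 0 of all 19895 genes tested. In the remaining alternatives 6 or 7 passed against PBS, and FGFR2 was the receptor that was lost. Between normo-Migs and CD147KO-Migs, 1 receptor, FGFR2, passed on the fold change alone. Signs turned only for differences near 0. For FGFR4 between hypo-Migs and CD147KO-Migs the log2 fold change was -0.00044 as reported, 0.00599 with no filter beyond 1 read, 0.00098 with 10 reads in every library, 0.00068 with log2(FPKM + 1) and 0.000796 with log2(FPKM + 0.1). For EGFR between normo-Migs and CD147KO-Migs it was -0.0009 as reported and 0.00022 and 0.00023 with log2(FPKM + 1) and log2(FPKM + 0.1). For AXL in the same pair it was 0.0008 as reported, -0.0188 with total reads, -0.0043 with 10 reads in every library and -0.0045 with protein-coding genes alone. The causes were not tested. Depth limits FGFR2 most among the receptors, with at most 16 reads. No paired analysis was possible because each condition had 1 library and the labels give no replicate numbers, and for the same reason no replicate could be left out.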
